A study of Rattus norvegicus with 5 samples.

Results

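The cell cycle family of miR-15 and miR-16 was measured in rat hearts as 3 guide-strand probes, rno-miR-15b, rno-miR-16 and rno-miR-195, out of 678 rat miRNA probes on the array. They were chosen by name, star (partner) strands not included, and each had 4 spots on every array, 12 spots in all. The tested hearts had been loaded with pressure by transverse aortic constriction (TAC), an operation that narrows the aortic arch, and were taken 5, 10, 15 or 20 days later. The comparison hearts came from rats given a sham operation without constriction. All rats were male, of the SD strain and 6 to 8 weeks old, with no genetic change named in the labels. Each of the 4 TAC groups and the sham group was 1 sample of total RNA from the hearts of 5 rats, labelled with Hy3 and hybridized to 1 array. With 1 array per group, no difference below has a replicate check or a test across samples, and each SE given here is taken over the 4 spots of a probe, not over animals. In RNA from whole hearts, fewer cells of a type and less RNA per cell cannot be told apart. The sham sample is labelled as 5 days after surgery, while the header of its raw column carries day 15, so its time match with the TAC day 5 array rests on the label.

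MicroRNAs (miRNAs) guide Argonaute proteins to messenger RNAs, mainly through the seed, bases 2 to 8 of the mature strand, and lower the output of the messages they pair with. The miR-15 family pairs with messages of cell cycle drivers such as cyclin D1, cyclin E1 and the checkpoint kinase Chek1, and of the survival factor Bcl2. In mice, the family is known for holding back the division of heart muscle cells after birth, and forced expression of miR-195 in the heart enlarges it. MiR-16 is also abundant in red blood cells.

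The mature sequences are shown because the members share the seed and differ after it. They are from RefSeq on the GRCr8 build, written 5′ to 3′ with bases 2 to 8 in capitals, and all 3 members were matched by name to the RefSeq guide strand, miR-15b-5p, miR-16-5p and miR-195-5p.
rno-miR-15b: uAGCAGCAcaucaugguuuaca
rno-miR-16: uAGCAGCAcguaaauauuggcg
rno-miR-195: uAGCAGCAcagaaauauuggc
rno-miR-497: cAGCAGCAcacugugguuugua
rno-miR-322: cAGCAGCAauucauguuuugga
rno-miR-503: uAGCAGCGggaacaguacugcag
The seed AGCAGCA was carried by 5 of 692 distinct mature rat sequences in that table, the 3 members with miR-497 and miR-322. MiR-503 differs from it in the last seed base, as its capitals show. MiR-16 and miR-195 were identical at 19 of the 21 positions compared from the 5′ end, and miR-15b and miR-16 at 14 of 22. How much of each signal came from cross-hybridization between miR-16 and miR-195 was not tested.

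The members came from separate places in the genome. MiR-15b (chr2:155555197-155555218, plus strand) and miR-16 (chr2:155555343-155555364, plus strand) lie 124 bases apart inside Smc4, the gene of a condensin subunit. MiR-195 (chr10:55450509-55450529, plus strand) lies 315 bases from miR-497 (chr10:55450172-55450193, plus strand). MiR-503 (chrX:137725899-137725921, minus strand) and miR-322 (chrX:137726198-137726219, minus strand) lie 276 bases apart on the X chromosome. Members of a pair transcribed together share their source and are not independent of each other.

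On the TAC day 5 array all 3 members read lower than on sham, in all 4 spots. MiR-16 gave 1222, 741, 1089 and 1220 units of background-subtracted intensity on TAC day 5, against 11676, 11543, 12252 and 12139 units on sham. MiR-195 gave 509, 395, 451 and 526 units on TAC day 5, against 6865, 7478, 7244 and 7213 units on sham. The highest TAC day 5 spot of each lay far below its lowest sham spot. After correction of the background with normexp (offset 50) and quantile scaling over the rat miRNA probes, miR-16 read 5.74-fold lower on TAC day 5 (log2 ratio -2.52 ± 0.10, SE over spots) and miR-195 6.51-fold lower (-2.70 ± 0.08).

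MiR-15b was below the detection floor on TAC day 5, so only a bound can be given. Its spots there read -46, -26, 33 and 41 units, under the floor of 72.1 units, against 1190, 1209, 1291 and 1261 units on sham. The floor is the median plus 3 MAD (scaled to an SD) of the empty and negative-control spots. Against the dimmest detected probe of that array, miR-15b was at least 4.45-fold lower on TAC day 5 (normalized log2 means of 7.56 on TAC day 5 and 10.37 on sham).

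Low readings were common on that array. TAC day 5 and sham shared 152 miRNAs above the floor, of which 40 (26.3%) read 2-fold or more lower on TAC day 5, among them the 2 measured members. All 4 TAC day 5 spots lay below all 4 sham spots for those 2 and for 27.6% of all. Each probe was printed in 2 spots in blocks 1 to 18 and in 2 spots in blocks 19 to 36, a block being a printed sub-grid of the slide. Both members were 2-fold or more lower in both sets of blocks, as were 19.7% of all miRNAs. In the first set alone 23.7% of all were, in the second alone 24.3%, and 1.32% were 2-fold or more lower in the first and above sham in the second. The members stood near the low end of the array: counted from the lowest ratio of the 152, miR-195 was 7th and miR-16 9th, where the median ratio was 0.56.

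The size of the day 5 difference depended on the scaling. Synthetic spike-in RNAs, added as controls, read lower on TAC day 5 by a median of -2.31 on the log2 scale over 47 probes. Scaled to these, the ratio was -0.90 for miR-16 and -1.04 for miR-195. That scaling shifted the ratios of the miRNAs by a median of 1.93, and their median ratio was 2.45 with spike-in scaling and 0.56 with quantile scaling. Relative to the median, miR-16 was at -3.35 and miR-195 at -3.49 with spike-in scaling, at places 10 and 8 from the lowest. Spike-in scaling takes the same constant from every probe of an array, and that constant cancels in these distances and places. They therefore do not test the spike-in shift. The same distances were -3.08 for miR-16 and -3.26 for miR-195 with quantile scaling. For miR-15b, spike-in scaling left no bound on day 5. The bound was between 3.61-fold and 12.6-fold lower with the other scalings and background corrections tried.

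**Figure D1:**
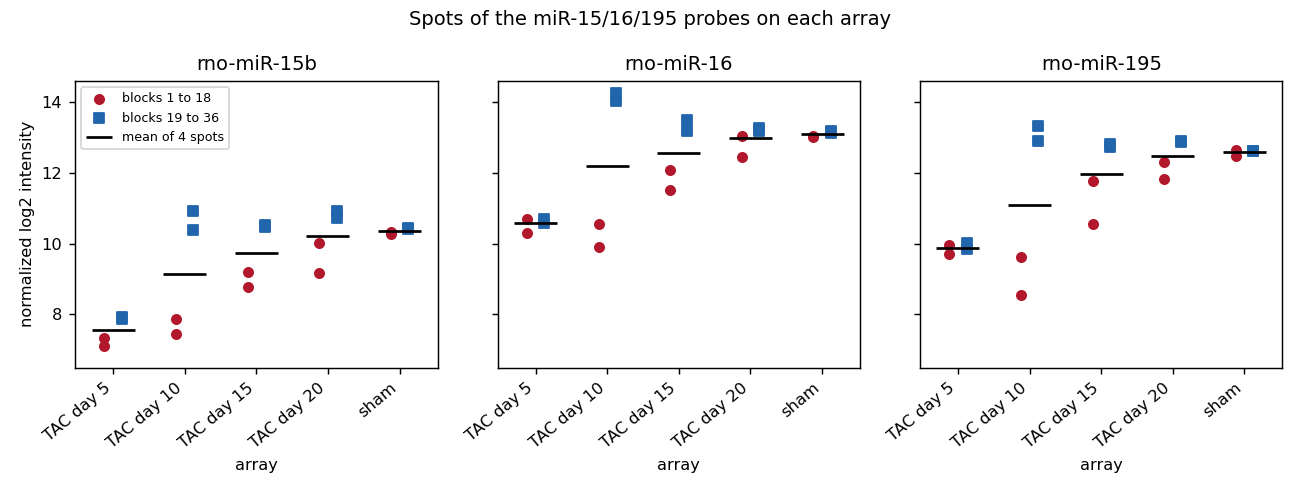
Normalized log2 intensity (y axis) of the 4 spots of each member on each array (x axis), red circles for blocks 1 to 18, blue squares for blocks 19 to 36, black line for the mean of 4. The spots lie together on TAC day 5 and on sham, and apart on TAC day 10, where the miR-16 mean of 12.20 has no spot near it.

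On the TAC day 10 array the spots of each member fell into separate pairs by their place on the slide. MiR-16 gave 1456 and 867 units in blocks 1 to 18, the first set, and 14348 and 18934 in blocks 19 to 36, the second set, on TAC day 10, against 11676 and 11543 units in the first and 12252 and 12139 in the second on sham. MiR-195 gave 600 and 181 units in the first set and 7239 and 9705 in the second on TAC day 10, where its 4 sham spots lay between 6865 and 7478. MiR-15b gave 55 and 9 units in the first set and 1328 and 1830 in the second on TAC day 10, where its 4 sham spots lay between 1190 and 1291. In the first set each member was as low as on TAC day 5 or nearly so, and in the second each was at or above sham.

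The mean ratios of day 10 therefore describe neither set of blocks. They were -1.49 ± 1.19 (SE over spots) for miR-195, -1.22 ± 0.88 for miR-15b and -0.90 ± 1.14 for miR-16. By these means 2 of 3 members read 2-fold or more lower on TAC day 10, beside 15.7% of 197 miRNAs. The count was 0 with either spike-in scaling, where miR-15b read 0.46 over the whole slide, and in the authors' processed values, and 3 with median scaling or quantile scaling over all probes. In blocks 1 to 18 alone miR-195 read 11.2-fold, miR-16 6.97-fold and miR-15b 6.28-fold lower on TAC day 10. In blocks 19 to 36 alone miR-16 read 1.99-fold, miR-195 1.41-fold and miR-15b 1.16-fold higher. Each of these 3 was past 2-fold lower in the first set, as were 34.5% of all miRNAs there, and 0 of 3 were in the second, beside 9.14%. Being 2-fold or more lower in the first set and above sham in the second was the pattern of all 3 members and of 20.3% of all miRNAs on day 10. The median ratio of all miRNAs in the second set was itself 0.56. For miR-15b the direction in the second set turned with the scaling, to -0.15 with quantile scaling over all probes and -0.18 with quantile scaling within each block set. Of all miRNAs 7.61% were 2-fold or more lower in both sets, and 0 of 3 members were. For 10.2% of all and 0 of 3 members, all 4 TAC day 10 spots lay below all 4 sham spots.

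The gap between the block sets was wider for miR-195 and miR-16 than for any other miRNA measured on day 10. Blocks 19 to 36 read 16.3-fold above blocks 1 to 18 for miR-195 (log2 difference 4.03) and 15.0-fold for miR-16 (3.91), the first and second of 197. MiR-15b, at 8.01-fold, was at place 11, and the median log2 difference of all was 1.07. The 3 members were printed in blocks 13 and 14 and again in 31 and 32. Other miRNAs of blocks 13 and 31 differed by between -0.48 and 2.83 on day 10 (17 miRNAs), and those of blocks 14 and 32 by between -0.50 and 2.43 (7 miRNAs).

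Spike-in controls were split in the same way. Their median log2 difference between the sets, on background-subtracted intensity, was 2.52 on TAC day 10 (25 probes above the floor in both sets), 2.17 on day 15 (40 probes) and 1.08 on day 20 (44 probes). On TAC day 5 it was 0.11 (26 probes), and on sham 0.27 (46 probes). Against sham, spike-ins on TAC day 10 read -2.44 in blocks 1 to 18 and -0.58 in blocks 19 to 36 (47 probes). When each set was scaled to its own spike-ins, the gap on day 10 narrowed without closing: miR-16 read -0.73 in the first set and 1.01 in the second, and miR-195 -1.36 and 0.79. The part that place on the slide has in the family's ratios was not tested further.

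**Figure D2:**
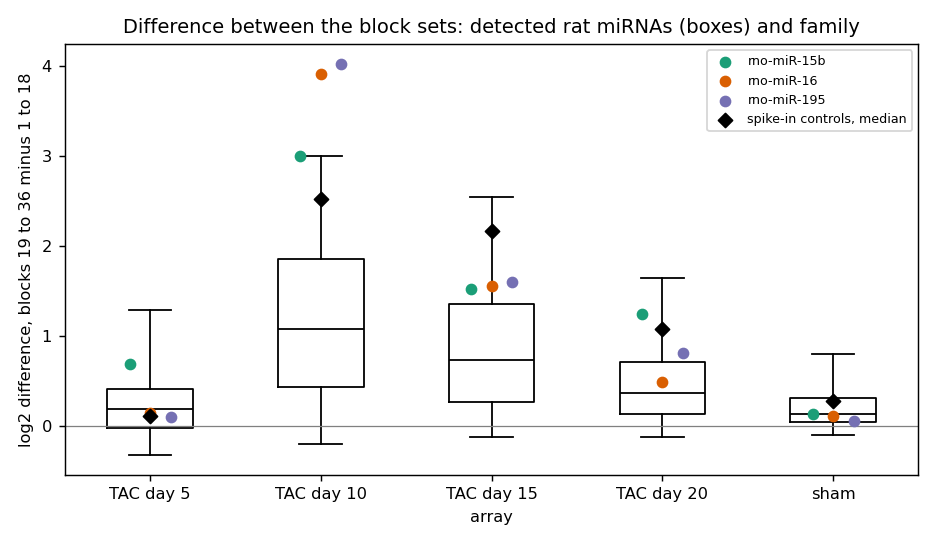
Log2 difference between blocks 19 to 36 and blocks 1 to 18 (y axis) on each array (x axis). Boxes span the quartiles and whiskers the 5th to 95th percentile of miRNAs above the floor on that array and on sham. Coloured points are the members and black diamonds the spike-in median. The diamonds are from background-subtracted intensity, whereas boxes and members are from normalized values, so the measures are not alike. On TAC day 10 miR-195 (4.03) and miR-16 (3.91) lie above the whisker, which ends at 3.01.

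On the TAC day 15 array the same split was seen at a smaller size. MiR-16 gave 2464 and 4237 units in blocks 1 to 18 and 11369 and 13545 in blocks 19 to 36. MiR-195 gave 1339 and 3160 units in the first set and 8015 and 8452 in the second. MiR-15b gave 267 and 416 units in the first set and 1257 and 1289 in the second. In the second set the day 15 spots of miR-195 all lay above its sham spots, those of miR-16 fell on either side of its sham spots, and those of miR-15b (1257 and 1289) lay within the range of its 4 sham spots.

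By the mean of 4 spots, 0 of 3 members read 2-fold or more lower on day 15, beside 2.49% of 201 miRNAs. The ratios were -0.63 ± 0.45 for miR-15b, -0.62 ± 0.52 for miR-195 and -0.53 ± 0.47 for miR-16. In blocks 1 to 18 alone they were -1.32 for miR-15b, -1.39 for miR-195 and -1.24 for miR-16, each past 2-fold, as were 21.9% of all miRNAs there. With quantile scaling within each block set, 0 of 3 were past 2-fold in the first set, at -0.94 for miR-15b, -0.91 for miR-195 and -0.81 for miR-16. In the second set that scaling put miR-15b at -0.25 and miR-195 at -0.18, below sham, and miR-16 at 0.03. In blocks 19 to 36 alone the ratios without that further scaling were 0.06 for miR-15b, 0.15 for miR-195 and 0.19 for miR-16, so that 0 of 3 were past 2-fold, beside 0.995% of all. Being 2-fold or more lower in the first set and above sham in the second was the pattern of all 3 members and of 15.9% of all miRNAs on day 15, and 0.498% were lower in both. The spots of all 3 members overlapped those of sham, whereas 3.48% of all had 4 spots below all sham spots. The gap between the sets was 1.52 for miR-15b, 1.60 for miR-195 and 1.55 for miR-16, beside a median of 0.73 for all miRNAs.

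On the TAC day 20 array the members read close to sham. MiR-16 gave 5636, 9434, 10853 and 11784 units on TAC day 20, miR-195 gave 3482, 4868, 8326 and 7585, and miR-15b gave 567, 986, 1760 and 1589. All 3 spanned or overlapped their sham spots, and the lower readings were again those of blocks 1 to 18. The log2 ratios to sham were -0.10 ± 0.19 for miR-16, -0.11 ± 0.26 for miR-195 and -0.15 ± 0.40 for miR-15b. None of the 3 was at 2-fold, beside 0.433% of 231 miRNAs read lower and 1.3% higher. In blocks 1 to 18 alone 0 of 3 members and 5.63% of all were 2-fold or more lower. Of all, 2.6% were lower there and above sham in blocks 19 to 36. For 14.7% of all and 0 of 3 members the day 20 spots lay below all sham spots. Counted from the lowest ratio, the members were at places 98 to 108 of 231. The sets again differed: miR-15b read -0.70 in blocks 1 to 18 and 0.40 in blocks 19 to 36, at places 35 and 183. MiR-195 read -0.49 and 0.27 in these sets, and miR-16 -0.28 and 0.08.

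**Figure D3:**
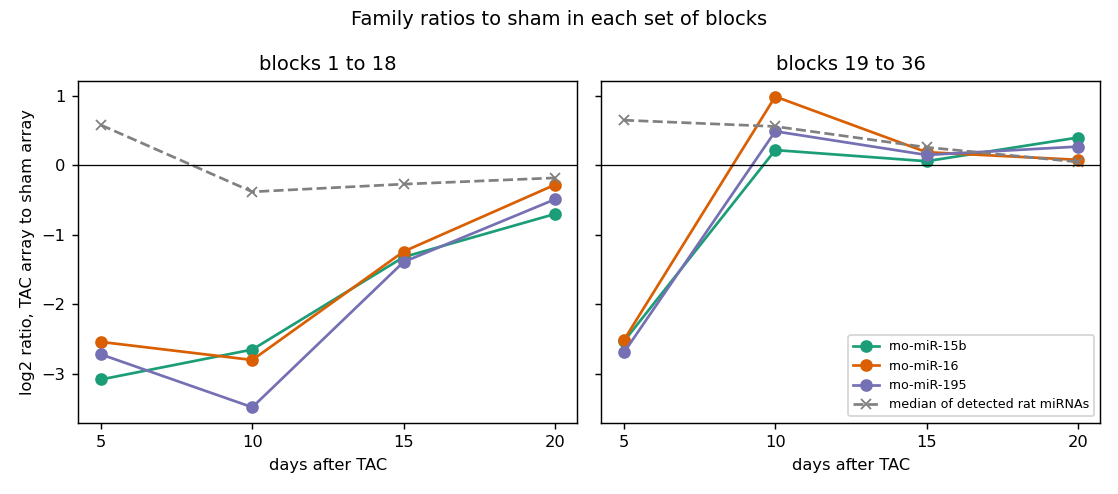
Log2 ratio of each member to sham (y axis) by days after TAC (x axis), in blocks 1 to 18 (left) and blocks 19 to 36 (right), with the median of detected rat miRNAs as a dashed grey line. MiR-15b on day 5 is below the detection floor. In blocks 1 to 18 miR-195 was at -3.48 on day 10, and in blocks 19 to 36 at 0.49.

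Within the TAC series the members read higher on day 20 than on day 5, in both sets of blocks. MiR-195 read 6.03-fold higher on TAC day 20 than on TAC day 5 (log2 ratio 2.59 ± 0.26) and miR-16 5.36-fold higher (2.42 ± 0.21). MiR-15b, below the floor on day 5, was at least 4.01-fold higher on day 20. All 4 day 20 spots lay above all 4 day 5 spots for each member. The same held for miR-101a, miR-126, miR-144 and miR-451, whereas the spots of miR-1 and miR-21 lay below. The share of all miRNAs for which it held was not counted, so the rise is not shown to be particular to the family. In blocks 1 to 18 the day 20 to day 5 ratio was 2.23 for miR-195 and 2.25 for miR-16, and in blocks 19 to 36 it was 2.95 and 2.59. Scaled to the spike-ins, the ratio was 1.13 for miR-195 and 0.93 for miR-16, and miR-15b was at least 1.04-fold higher on day 20.

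By the mean of 4 spots, the members kept close to one another where measured. Over the 4 TAC arrays the ratios of miR-16 and miR-195, which lie on different chromosomes, differed by at most 0.59, on day 10. Over days 10 to 20 those of miR-15b and miR-16, from the same gene, differed by at most 0.31, and those of miR-15b and miR-195 by at most 0.28. Within a block set some pairs lay further apart on day 10. In blocks 1 to 18 miR-15b read -2.65, miR-16 -2.80 and miR-195 -3.48. In blocks 19 to 36 they read 0.22, 0.99 and 0.49 in that order. The SE over spots on day 10 includes the gap between the block sets, which the members share. It therefore does not measure how far the members differ from one another. On day 5 miR-195 read slightly lower relative to sham (-2.70 ± 0.08) than miR-16 (-2.52 ± 0.10).

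On day 5 miR-322 and miR-503, both relatives by seed, read nearer to the median of all miRNAs than miR-16 and miR-195 did, and miR-497 had only a bound. MiR-322 read 2.15-fold lower on TAC day 5 (log2 ratio -1.11 ± 0.23), with 436.5 units on TAC day 5 and 1912.2 on sham, and its ratios on days 10, 15 and 20 were 0.08 ± 0.41, 0.20 ± 0.19 and -0.03 ± 0.03. MiR-497, the neighbour of miR-195, was below the floor on TAC day 5, at 55.0 units against 325.8 on sham, and was at least 1.45-fold lower. Its later ratios were -0.52 ± 0.50 on day 10, -0.67 ± 0.18 on day 15 and -0.38 ± 0.09 on day 20, with all 4 spots below all 4 sham spots on days 15 and 20. These depended on the processing: with plain background subtraction miR-497 read -2.67 on day 10, and with spike-in scaling it read 1.06 on day 10, -0.17 on day 15 and 0.14 on day 20. MiR-503, whose seed differs in its last base, gave 0.70 ± 0.08 on day 5 with all 4 spots above sham, and 0.24 ± 0.22, 0.08 ± 0.19 and 0.27 ± 0.15 on days 10, 15 and 20. How many of all miRNAs had all 4 spots above sham on day 5 was not counted. With spike-in scaling, under which the median of all miRNAs stood at 2.45 on day 5, miR-322 read 0.71, miR-503 read 2.49 and miR-497 had no bound, so the direction against sham of miR-322 turned with the scaling. That of miR-503 turned with quantile scaling over all probes on the array, where it read -0.13.

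**Figure D4:**
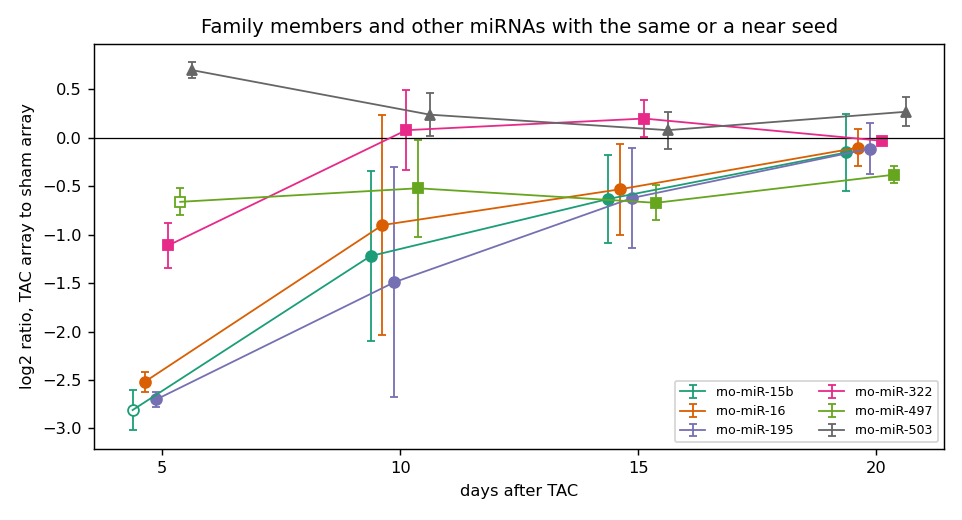
Log2 ratio to sham (y axis, mean of 4 spots with the SE over spots as bars) by days after TAC (x axis, points moved sideways so that bars do not overlap) for the members (circles), miR-322 and miR-497 (squares) and miR-503 (triangles). Open symbols are below the detection floor on TAC day 5. On day 5 miR-195 at -2.70 and miR-16 at -2.52 lie below miR-322 at -1.11 and miR-503 at 0.70, and miR-15b and miR-497 have only a bound.

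The partner strands gave little signal. MiR-15b* and miR-16* were below the floor on all 5 arrays. MiR-195* was above it on TAC day 20 alone, at 91.0 units against 19.5 units on sham, and was at least 1.21-fold higher there. MiR-497* and miR-322* were below the floor throughout. MiR-503* was above it on TAC day 10, at 68.0 units (log2 ratio 0.45 ± 0.10), and on sham, at 32.0 units.

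Among neighbours of miR-322 and miR-503 on the X chromosome, miR-351 and miR-450a* read above sham on day 5, where miR-322 read below it. MiR-351, from the same cluster, read 1.37 ± 0.10 on the log2 scale on TAC day 5, 2.59-fold higher, and -0.25 ± 0.42, 0.44 ± 0.16 and 0.34 ± 0.14 on days 10, 15 and 20. MiR-450a* read 2.00 ± 0.12 on day 5 and 0.91 ± 0.10, 1.29 ± 0.09 and 1.29 ± 0.11 on days 10, 15 and 20. All 4 of its spots lay above all 4 sham spots each time. How common such a separation was among all miRNAs was not counted, so it is not shown to be particular to miR-450a*. MiR-542-3p read 0.76 ± 0.17 on day 5 (-0.15 with quantile scaling over all probes), was at least 2.22-fold lower on day 10 (with no bound under spike-in scaling), and read 0.08 ± 0.38 on day 15 and -0.27 ± 0.26 on day 20. MiR-450a and miR-542-5p were above the floor on 1 array each, TAC day 10 at 52.8 units and TAC day 20 at 29.0 units. MiR-351 and miR-450a* read above sham on day 5 under each scaling tried, from 0.67 to 3.40 for miR-351 and from 1.30 to 4.08 for miR-450a*. Of all miRNAs, 41.4% read 2-fold or more higher on day 5, 13.7% on day 10 and 4.98% on day 15.

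Other miRNAs known to restrain the cell cycle did not read low as a group on day 5. Of 18 measured (of let-7, miR-26, miR-24, miR-29, miR-101, miR-103, miR-107 and miR-124), 8 read 2-fold or more higher and 6 lower, beside 41.4% and 26.3% of all miRNAs, with a median log2 ratio of 0.56, equal to that of all miRNAs. The lowest on day 5 were miR-101a (-2.48 ± 0.12) and miR-29a (-1.69 ± 1.74), and the highest let-7c (3.84 ± 0.52) and let-7f (2.37 ± 0.21). Not among the 18 was miR-34a, below the floor on day 5 and at least 4.06-fold lower with quantile scaling. On day 10, 4 of 19 were higher and 3 lower, beside 13.7% and 15.7% of all, from let-7b (-1.36 ± 0.45) and miR-34a (-1.27 ± 0.70) to miR-124 (1.29 ± 0.33) and let-7c (2.64 ± 0.66). On day 15, 1 of 19 was higher and 0 lower, beside 4.98% and 2.49% of all, and the ends were let-7b (-0.85 ± 0.90), miR-101b (-0.85 ± 0.66), let-7e (0.45 ± 0.13) and let-7c (1.91 ± 0.52). On day 20, 0 of 19 were at 2-fold, beside 1.3% of all higher and 0.433% lower, and the ends were let-7f (-0.65 ± 0.07), miR-101b (-0.62 ± 0.54), miR-124 (0.28 ± 0.10) and let-7c (0.43 ± 0.77). The list medians on days 10, 15 and 20 were 0.06, -0.30 and -0.09, beside -0.01, -0.01 and -0.08 for all miRNAs.

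MiRNAs known to promote the cell cycle (miR-17-5p and its cluster mates, miR-106b and its cluster mates, miR-221, miR-222 and miR-21) were for the most part below the floor on day 5. Of the 5 measured then, miR-21 (1.70 ± 0.11) was the 1 that read 2-fold or more higher and miR-106b (-1.31 ± 0.16) the 1 that read lower, with miR-17-5p at 0.51 ± 0.14 and miR-19b at -0.92 ± 0.06. Among those below the floor on day 5 but above it on sham, miR-20a was at least 2.85-fold, miR-93 at least 2.07-fold, miR-25 at least 1.25-fold and miR-222 at least 1.2-fold lower with quantile scaling, and miR-221 had no bound. These are not in the counts of measured miRNAs, and 41.4% of all measured miRNAs read higher and 26.3% lower. On day 10, 1 of 9 was higher (miR-21, 1.03 ± 0.37) and 0 lower, beside 13.7% and 15.7% of all, with miR-17-5p at 0.83 ± 0.15, miR-106b at -0.74 ± 0.66 and miR-222 at -0.71 ± 0.46. On day 15, 0 of 9 were at 2-fold, beside 4.98% of all higher and 2.49% lower. The ends were miR-222 (-0.74 ± 0.37), miR-19a (-0.53 ± 0.37), miR-21 (0.08 ± 0.12) and miR-19b (0.10 ± 0.22). On day 20, 0 of 10 were at 2-fold, beside 1.3% of all higher and 0.433% lower. The ends were miR-17-5p (-0.50 ± 0.03), miR-25 (-0.33 ± 0.14), miR-19b (0.15 ± 0.19) and miR-21 (0.44 ± 0.05). The list medians were -0.04, -0.27, -0.29 and -0.23 over the 4 times, beside 0.56, -0.01, -0.01 and -0.08 for all miRNAs.

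The miRNA whose profile lay nearest to the family's was miR-101a. Likeness was the root mean square difference over the 4 log2 ratios to sham from the mean profile of miR-16 and miR-195 (-2.61, -1.20, -0.57 and -0.11 on days 5, 10, 15 and 20), among 141 other miRNAs above the floor on all arrays. It was 0.242 for miR-101a, 0.400 for miR-99a, 0.439 for miR-499, 0.494 for miR-30e* and 0.508 for miR-451. All these ratios share the sham array. The day 10 values of the other 4 than miR-499 were lower in blocks 1 to 18 than in blocks 19 to 36: miR-101a read -2.76 in the first set and 0.23 in the second, and miR-499 -1.86 and -2.07.

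Markers of red blood cells read low on day 5, as the family did, and on day 10 miR-451 was split between the block sets as well. The erythroid miRNAs miR-144 and miR-451 summed to 1144, 5942, 20050 and 18683 units on TAC days 5, 10, 15 and 20, against 19712 units on sham. Both were above the floor on every array. The sums here and below are of background-subtracted intensity and are not scaled between arrays, and spike-ins read lower on TAC day 5 too. MiR-451 read -3.26 ± 0.06 on day 5 and miR-144 -2.11 ± 0.18, and with spike-in scaling they read -1.70 and -0.45. On day 10, when the members were at or above sham in blocks 19 to 36, miR-144 was low in both sets (-2.78 in the first and -2.30 in the second). MiR-451 gave -3.43 and -0.24, and its gap between the sets, 10.2-fold, was at place 4 of 197. With spike-in scaling the day 10 ratio was -0.55 for miR-451 and -1.14 for miR-144. The endothelial pair miR-126 and miR-126* summed to 3770, 41314, 45699 and 49594 units on TAC days 5 to 20, against 54797 units on sham. On day 5 miR-126 read -3.80 ± 0.21 and miR-126* -1.08 ± 0.08. With spike-in scaling miR-126 read -1.95 and miR-126* 0.78, so the direction of the second turned. On day 10 both were split as the members were: miR-126 gave -2.37 in blocks 1 to 18 and 0.25 in blocks 19 to 36, and miR-126* -1.41 and 0.94. The part that these cell types have in the family's ratios was not tested.

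Other cell markers were read in the same way, with sums not scaled between arrays. Of 7 heart muscle markers 6 were on the array (miR-1, miR-133a, miR-133b, miR-208, miR-208b-3p and miR-499), and all 6 were above the floor on each array, with sums of 106131 to 135726 units on the TAC arrays against 152647 units on sham. On day 5 the median ratio of these 6 was 0.40, with miR-499, the third nearest profile, at -2.48 ± 1.12. The 4 leukocyte markers summed to 4950, 7513, 13998 and 15276 units on TAC days 5, 10, 15 and 20, against 10765 units on sham. With quantile scaling the day 5 ratios were -0.28 ± 0.07 for miR-142-3p, 0.19 ± 0.05 for miR-142-5p and -1.15 ± 0.71 for miR-150. MiR-223 was below the floor on day 5 and at least 1.67-fold lower. The smooth muscle pair miR-143 and miR-145 summed to 4252 units on TAC day 5 and to between 28242 and 32158 units on later TAC days, against 37736 units on sham. Like the members, miR-143 was low on day 5 (-3.69 ± 1.04) and split on day 10 (-2.43 in blocks 1 to 18 and 1.04 in blocks 19 to 36), whereas miR-145 read -0.13 ± 0.16 on day 5. The fibroblast markers summed to between 5485 and 8553 units on the TAC arrays, against 7962 units on sham. The liver miRNA miR-122 was below the floor on every array, whereas the nerve miRNAs miR-124 and miR-9 were above it on all 5, at sums of 284 to 660 units on the TAC arrays and 374 units on sham. The part of these cell types in the family's ratios was likewise not tested.

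The arrays themselves differed. The median background was 206, 152, 144 and 101 units on TAC days 5, 10, 15 and 20, against 104 units on sham, and 162, 213, 207 and 257 rat miRNAs were above the floor on those TAC arrays, against 236 on sham. No spot of a member was near the ceiling of 65535 units: the highest read 19082 units of foreground.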

How the data were processed

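For all 12312 spots, the files deposited by the authors hold a foreground intensity and a background-subtracted intensity, per the file headers, neither scaled between arrays. They also deposited a linear ratio per probe, found from the values to be its median background-subtracted intensity over 1 constant per array (within a relative deviation of 6.89e-07). The constants were 733, 1036.5, 991 and 1074.5 on TAC days 5, 10, 15 and 20 and 1036.5 on sham. The medians of the ratio columns were 0.36, 0.243, 0.284 and 0.182 on those TAC arrays and 0.192 on sham. No source used here gives the rule behind the constants or the scanner. Raw columns were tied to samples by day and by this exact match.

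Foregrounds were corrected by normexp (offset 50), quantile normalized over the spots of 678 rat miRNA probes and averaged over the 4 spots on the log2 scale (limma 3.58.1, R 4.3.3). The offset and quantile scaling shrink ratios, and in simulation not those of dim probes alone. On simulated arrays, all 40 probes given a log2 change of 2 up or down came back past 2-fold, at medians of 1.65 and -1.57. Of 101 unchanged probes, 0 passed 2-fold. Changed and unchanged probes alike were drawn from those bright on sham, and equal numbers were raised and lowered. Dim probes and unequal changes were therefore not tested. The simulated arrays had no gap between the block sets and no shift of a whole array, so they do not test the steps against either. The floor used 1136 empty and negative-control spots. With 1 array per group no test across samples was made, and the number of arrays limits the precision. The family and lists were chosen with earlier results of these data known. Named were all members, seed relatives and detected cluster partners, the 2 highest and 2 lowest of each cell cycle list per array, the 5 nearest profiles and cell markers. Alternatives covered background, scaling, spots, blocks and floor; scaling within each block set was added after the data were seen. Probes for other species were left out.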

Additional observations from a re-analysis of the deposited data

How the results depend on the processing

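No paired analysis was possible because a group is 1 array. On TAC day 5, the 2 measured members stayed below sham in all 13 alternatives (miR-16 between -3.12 and -0.90, miR-195 between -3.43 and -1.04). Among these, the changes of floor alter only which miRNAs count as measured, so they could not move these ratios. Of the 2 counted as 2-fold lower, 1 was left with spike-in scaling, over the whole slide or within each block set. The day 10 count of 2 became 0 with spike-in scaling of either kind, in the authors' processed values and in blocks 19 to 36, where the day 10 ratio of miR-195 was 0.49. That of miR-15b was 0.22 in those blocks, 0.46 with spike-in scaling and 0.31 with spike-in scaling within each block set. On day 15 the count of 0 became 3 in blocks 1 to 18. The day 20 to day 5 ratio of miR-16 was 3.01 with quantile scaling over all probes, 0.93 with spike-in scaling and 0.89 with spike-in scaling within each block set. For miR-195 these were 3.24, 1.13 and 1.09, and 3.15 in the authors' values. The cause of these shifts was not tested.

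Counts of all rat miRNAs at 2-fold or more lower moved as well. The 40 of day 5 became 9 with either spike-in scaling and 78 with no floor. The 31 of day 10 became 62 with plain background subtraction, 48 with quantile scaling over all probes, 3 with either spike-in scaling, 68 in blocks 1 to 18 and 18 in blocks 19 to 36. The 5 of day 15 became 33 with plain subtraction, 12 with median scaling, 15 with quantile scaling over all probes, 14 in the authors' values, 44 in blocks 1 to 18, and 2 in blocks 19 to 36 and with either spike-in scaling. The 1 of day 20 became 32 with plain subtraction, 13 in blocks 1 to 18, 6 in the authors' values, 5 with quantile scaling over all probes, 3 with no background correction, median scaling or the median of spots, 2 with no floor or quantile scaling within each block set, and 0 with either spike-in scaling. MiR-15b on day 5 lay under the floor, where signal over background limits it.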
